A study of Prunus avium with 21 samples.

Results

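A group of 142 transcripts of sweet cherry flower buds, from 137 assembled genes, was lower in hydrogen cyanamide-treated (HC) than in control buds at 6 days after treatment (dat) by a margin that it had not reached at 1 dat. The members were chosen by measured values, on the log2(FPKM + 0.5) scale, where FPKM is the number of fragments per transcript, scaled by its length and by the mapped fragments of the library. The criteria were a mean difference between HC and control above -1 at 1 dat, a mean difference of -2 or lower at 6 dat, a highest HC level below the lowest control level at 6 dat, and a mean of at least 5 FPKM in the control libraries of 6 dat. Of all 112043 transcripts in 48840 assembled genes, 196 met the criteria of 6 dat. The criterion of 1 dat removed 53 of these, but did not ask that the groups be alike at 1 dat, and 1 more was removed with 3 assembled loci that the selection left out by identifier. At 1 dat all HC libraries were below all control libraries in 25 of the 142 members and above them in 11, beside 15.6% and 12.2% of the 61644 transcripts with a mean of 0.5 FPKM or more at that day. The values at 1 and 6 dat are therefore descriptions and were not tested, whereas the libraries of 3 dat and of day 0 took no part in the choice.

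The buds came from branches of 3 trees, numbered 4, 5 and 6, of the sweet cherry cultivar ‘Burlat’, and each tree gave 1 library of every group. The 7 groups were untreated buds at day 0, buds sprayed with water (control) at 1, 3, and 6 dat, and buds sprayed with 2% Dormex, a product with hydrogen cyanamide as its active compound, at 1, 3, and 6 dat. The buds of a whole branch were pooled for a library, and all sprayed branches stood under forcing conditions, in warmth and without dark periods. Day 0 was sampled before forcing and at another time of day, so that days, warmth and time of day cannot be told apart in any comparison with day 0. A whole flower bud holds several tissues, and fewer cells of a type and less RNA per cell cannot be told apart.

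FPKM summed to 671152 to 760090 per library, and each of the 21 libraries correlated most closely with another library of its own group. The depth behind a value is unknown. For transcripts of very low level, the most frequent ratio of a value to that in the control library of tree 6 at 3 dat was taken. It was 0.943 to 1.025 in control and 1.053 to 1.279 in HC libraries of 6 dat. This ratio is only a rough stand-in for the relative worth of 1 read, and the part of depth in the results was not tested. The 51 described transcripts of flower organ identity markers summed to between 225 and 517 FPKM in every library, with 8 of them at 1 FPKM or more throughout, and no member stood among them or among the markers of anther and pollen, vascular tissue and photosynthesis. Only described transcripts could stand in these lists, and 90 members had no description. At 6 dat the 54 anther and pollen markers summed to 117 to 215 FPKM in HC and 100.3 to 126 FPKM in control buds. The marker lists come from the study’s tables of transcripts that differed between these same samples, so their sums are not independent of the treatment.

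Dormant flower buds of fruit trees hold preformed flowers whose growth is arrested, and they carry proteins that protect membranes, proteins and walls against cold and drying. When dormancy ends these protective functions are given up while transport, metabolism and growth resume, and hydrogen cyanamide is used in orchards to bring bud break forward.

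The group joined transcripts that were higher in control buds at 6 dat than at day 0 with transcripts that were lower than at day 0 in both treatments. From day 0 to 6 dat, 71 members were higher by 1 or more on the log2 scale in control buds, 55 lay within 1 of day 0 and 16 were lower by 1 or more. In HC buds 13 were higher by 1 or more, 40 lay within 1 and 89 were lower by 1 or more. The median member differed from day 0 by 0.01, 0.31 and 1.02 in control buds at 1, 3, and 6 dat, and by 0.02, -0.28 and -1.51 in HC buds. Of the 7 groups, the control of 6 dat held the highest mean level for 87 members and HC at 6 dat the lowest for 94.

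**Figure D1:**
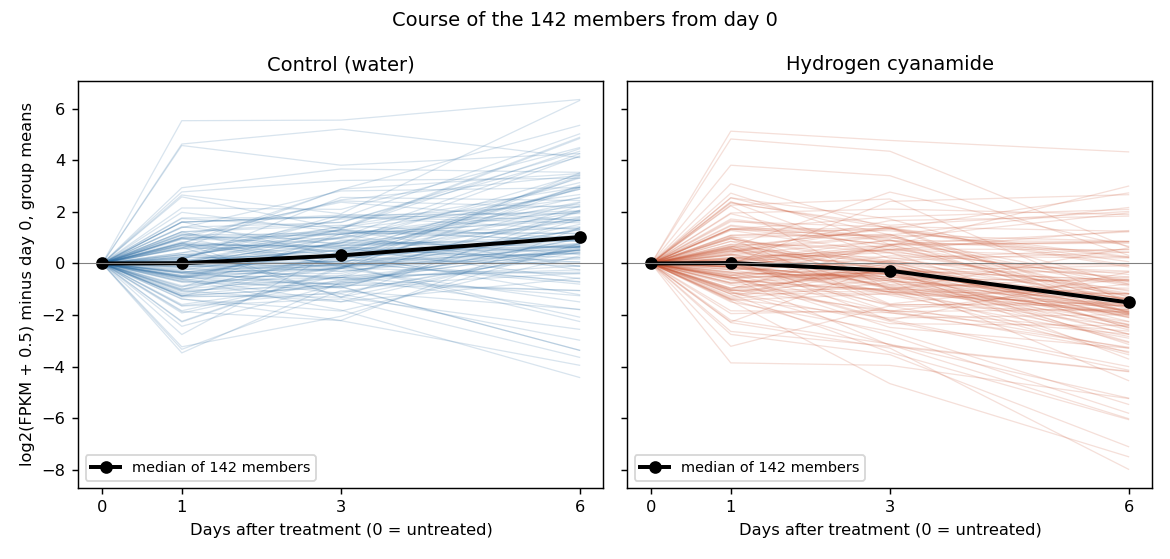
Mean log2(FPKM + 0.5) of each of the 142 members relative to day 0 (vertical axis) against days after treatment (horizontal axis), in control buds on the left and HC buds on the right, with 1 thin line per member and the median in black. The medians part after 1 dat and reach 1.02 in control and -1.51 in HC buds at 6 dat, days at which the choice of members fixed the order.

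The members were mostly of low level. At 6 dat the mean of the control libraries ran from 5.00 to 1876 FPKM with a median of 9.31 FPKM, and 7 members were at 100 FPKM or more. In HC buds the median was 1.41 FPKM, and 7 members stayed under 0.5 FPKM in every HC library. The log2 difference at 6 dat ran from -5.28 to -2.003 with a median of -2.57. Within trees 4, 5 and 6 the median difference at 6 dat was -2.50, -2.75 and -2.46, values that the criteria shaped. Tree 6 held the lowest of the 3 control levels of 6 dat for 64 members, tree 5 for 45 and tree 4 for 33, and the highest control level was more than 3 times the lowest for 21 members.

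Some members lay close to the thresholds. At 6 dat the cysteine-rich receptor-like kinase transcript TR13530|c0_g1_i3 was just inside at -2.003, and TR35446|c0_g2_i1 just outside at -1.991. At 1 dat the transcript of RCI2B, a small membrane protein, was inside at -0.965 (TR10963|c1_g1_i11), whereas TR12555|c3_g2_i4 for a gibberellin 2-beta-dioxygenase, an enzyme that inactivates gibberellins, was outside at -1.06. The mean control level of 6 dat was 5.00 FPKM for a high affinity nitrate transporter (TR38534|c3_g4_i1) and 4.98 FPKM for the alpha subunit of a G protein (TR26385|c0_g1_i24), which was left out. The lowest control library was above the highest HC library of 6 dat by 0.158 FPKM in the member TR12090|c0_g1_i2, and the difference was -0.0106 FPKM in TR39681|c0_g1_i13, which was left out.

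At 3 dat, in libraries that the choice did not use, 23 members were lower in HC than in control buds and none was higher. Of the 142 members 139 reached a mean of 0.5 FPKM in the 6 libraries and were tested, so 16.5% were called lower, beside 1.05% of all 63205 transcripts tested. The 2 shares were not matched for level, since members also had to reach 5 FPKM in the control of 6 dat. Calls varied with that level. Of members at 20 FPKM or more 9 of 29 were called lower, and of those under 10 FPKM 7 of 73. The background of calls in the other direction was 1.96%, and no member was called higher. At an unadjusted p under 0.05 (limma), 54 members were lower and 2 higher, and the background shares of calls do not apply at that cutoff. A call needs an adjusted p (limma, Benjamini-Hochberg over all transcripts tested) of at most 0.05 and an absolute log2 fold change (log2 FC) of at least 1. The median log2 FC was -0.63 over the members and -0.04 over all transcripts, and 103 members were below 0. All HC libraries lay below all control libraries for 47 of the 139 members, 33.8%, beside 13.2% of all transcripts tested, and above them for 3 (2.16%), beside 13.7%.

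The number of calls at 3 dat depended on single libraries. Without the control library of tree 6 it was 3, without that of tree 4 it was 5 and without that of tree 5 it was 15, and without the HC library of trees 4, 5 or 6 it was 10, 15 and 24. Lower calls over all transcripts fell too, from 666 with every library. They numbered 65, 131 and 423 without the controls of trees 6, 4 and 5. Without the HC libraries of trees 4, 5 and 6 they numbered 210, 230 and 536. All 23 members stayed below 0 in each of the 13 alternatives to which single members were put, and 3 kept their call with any 1 library left out, namely the transcript of RCI2B, a UDP-glucose glucosyltransferase transcript (TR13302|c2_g1_i2) and the undescribed TR32683|c0_g1_i2. With no filter on low values 2 members were called lower, RCI2B and this glucosyltransferase, beside 99 of all 112043 transcripts. The median difference between HC and control at 3 dat was -0.62 in tree 4, -1.06 in tree 5 and -0.44 in tree 6. Summed levels of tissue markers also differed at 3 dat. Flower organ identity markers summed to 271 to 358 FPKM in HC and 386 to 517 FPKM in control buds, vascular markers to 195 to 232 and 234 to 289 FPKM, photosynthesis markers to 630 to 704 and 717 to 808 FPKM, and anther and pollen markers to 101 to 113 and 91.9 to 116 FPKM. The last of these sums overlapped. Of single transcripts tested in these lists, 4 of 28 flower organ identity markers were called lower and 1 higher, none of 44 vascular markers lower and 2 higher, 1 of 42 photosynthesis markers lower and 1 higher, and none of 34 anther and pollen markers lower and 4 higher. These lists were drawn from tables of transcripts that differed between these same samples, so the sums and calls are not independent of the treatment. The part of tissue make-up in the result was not tested.

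**Figure D2:**
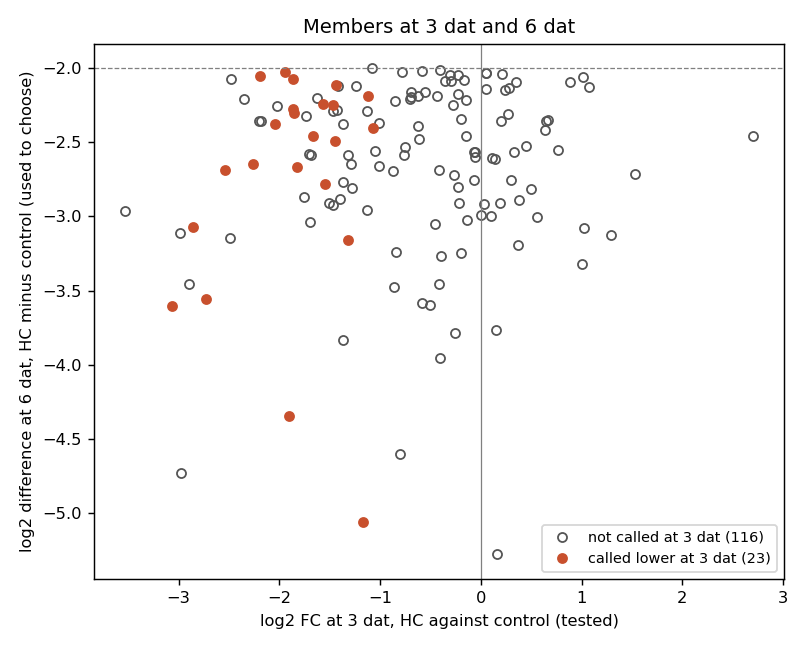
Log2 FC between HC and control at 3 dat (horizontal axis) and log2 difference at 6 dat (vertical axis) for the 139 members tested, with the 23 called lower at 3 dat filled. The dashed line is the limit of -2 at 6 dat that chose the members, and the filled points lie between -3.07 and -1.07 at 3 dat.

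A protein match was at hand for 52 members, of which 23 took it from another isoform of the same assembled gene, and 3 of the 52 matched uncharacterized proteins. These matches come from tables of transcripts that differed between these same samples, so counts over described members are not independent of the treatment. Among the described members 15 of 52 were called lower at 3 dat, and among the others 8 of the 87 tested.

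Members with roles in stress protection took unlike courses. The heat shock 70 kDa protein 8 transcript (TR1668|c0_g1_i1, a chaperone, the only isoform of its gene) stood at 64.3, 70.2 and 63.2 FPKM in trees 4, 5 and 6 at day 0. At 3 dat it was at 71.6, 45.8 and 80.5 FPKM in control and at 26.4, 17.3 and 21.1 FPKM in HC buds. These groups did not overlap, with a log2 FC of -1.57 (SE 0.24, adjusted p = 0.018, limma), whereas those of 1 dat did. At 6 dat its control levels were 122, 167 and 63.3 FPKM and its HC levels 36.1, 19.7 and 15.9 FPKM, so that tree 6 was low among the controls.

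A class I small heat shock protein transcript (TR32318|c0_g1_i2), of the kind that holds unfolding proteins in solution, was low at day 0, with 1.18, 0.661 and 0.979 FPKM. It reached 184, 144 and 54.6 FPKM in control buds at 6 dat and 21.4, 2.83 and 11.2 FPKM in HC buds. At 3 dat it was at 3.55, 4.49 and 7.39 FPKM in control and 3.93, 2.07 and 3.65 FPKM in HC buds. These groups overlapped and the log2 FC of -0.58 (SE 0.34) did not pass the test (adjusted p = 0.39, limma). It made up 12.4% of the summed FPKM of its 14 isoforms in control buds at 6 dat, and that sum differed by -1.45.

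RCI2B is a small hydrophobic membrane protein whose gene responds to cold in *Arabidopsis*. Its transcript (TR10963|c1_g1_i11) was at 63.2, 57.8 and 46.6 FPKM at day 0 and at 38.9, 48.5 and 78.5 FPKM in control buds at 3 dat. At 1 dat it was at 40.9, 52.9 and 58.6 FPKM in control and already lower, at 21.5, 36.4 and 21.1 FPKM, in HC buds. In HC buds it was at 7.85, 6.26 and 8.85 FPKM at 3 dat, far under every control library, with a log2 FC of -2.73 (SE 0.26, adjusted p = 0.0078, limma). By 6 dat it was at 13.6, 19.5 and 5.28 FPKM in control and at 0.283, 0.644 and 0.613 FPKM in HC buds. It made up 5.38% of the summed FPKM of its 11 isoforms in control buds at 6 dat, and that sum differed by -0.69.

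A basic endochitinase transcript (TR33030|c1_g1_i3), for an enzyme that cleaves chitin and is known from defence, fell from 571, 525 and 642 FPKM at day 0 in both treatments. At 1 dat it was at 267, 432 and 462 FPKM in control and already lower, at 239, 186 and 211 FPKM, in HC buds. At 3 dat it was at 220.1, 103 and 197 FPKM in control and 40.5, 10.7 and 25.5 FPKM in HC buds, a log2 FC of -2.85 (SE 0.48, adjusted p = 0.023, limma). At 6 dat it was at 23.1, 34.8 and 23.0 FPKM in control and 3.38, 1.64 and 3.46 FPKM in HC buds. The sum over the 3 isoforms of this gene went the other way at 6 dat, with a difference of 1.03, and this isoform made up 6.02% of it in control buds.

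**Figure D3:**
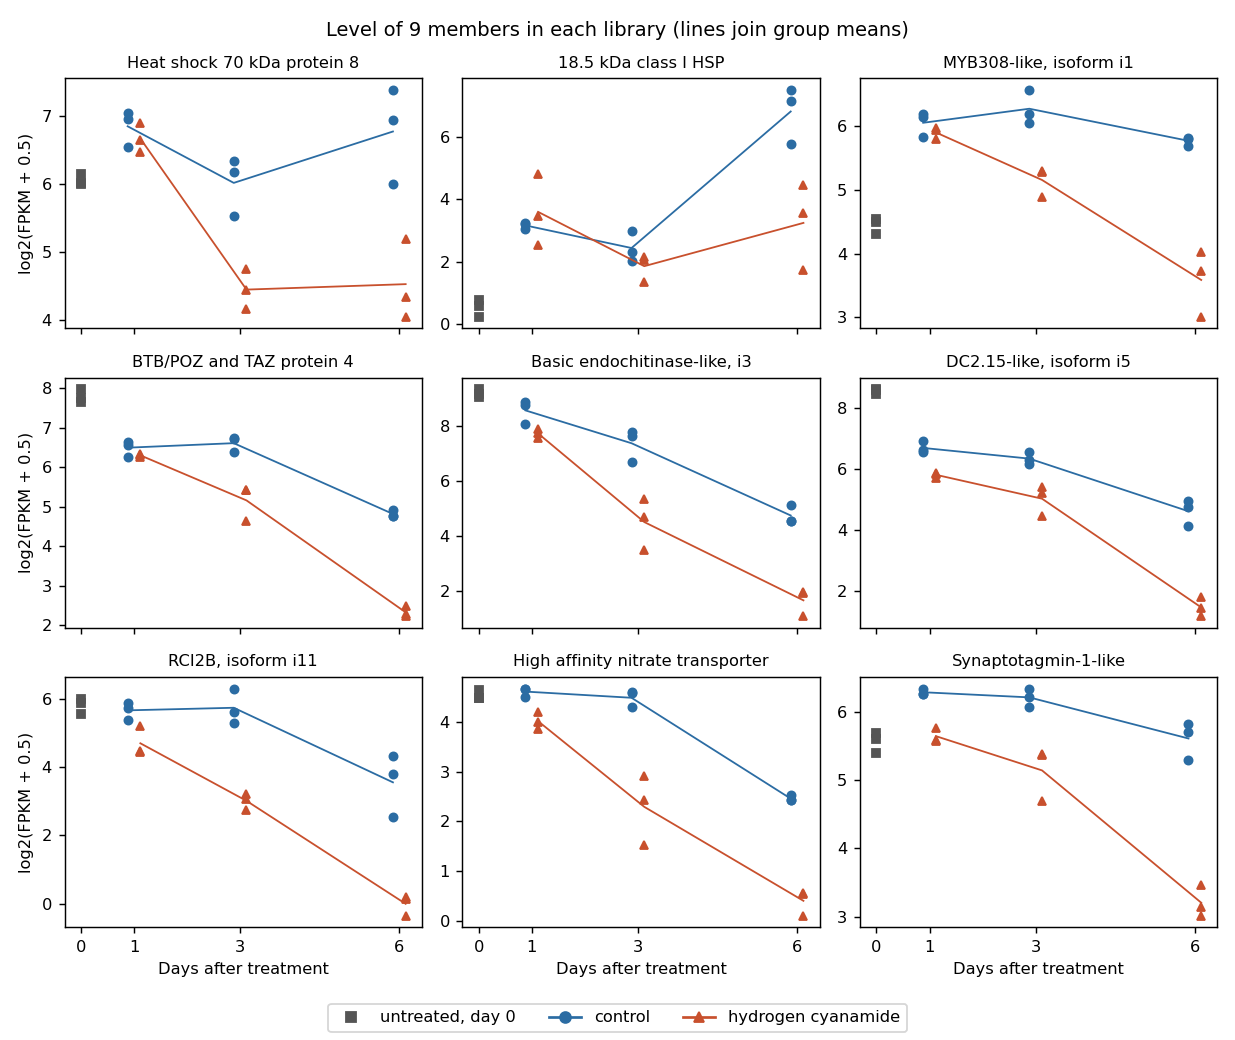
Level of 9 members as log2(FPKM + 0.5) (vertical axes) against days after treatment (horizontal axes), with 1 point per library and lines through the means of 3 libraries. HC points lie below all control points at 3 dat in each panel but that of the small heat shock protein, labelled HSP, where HC libraries of 3.93 and 3.65 FPKM exceed a control library of 3.55 FPKM.

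Several members had roles at the cell surface and its membranes. A transcript like carrot DC2.15 (TR26636|c6_g1_i5), a proline-rich protein with a lipid transfer domain, fell from 355, 385 and 395 FPKM at day 0 to 77.7, 72.1 and 94.3 FPKM in control and 42.0, 21.4 and 36.9 FPKM in HC buds at 3 dat. Its log2 FC was -1.32 (SE 0.25, adjusted p = 0.030, limma). At 1 dat it was already lower in HC buds, at 57.4, 57.7 and 52.4 FPKM against 97.9, 93.3 and 120 FPKM in control buds. At 6 dat it was at 26.6, 30.8 and 16.9 FPKM against 2.95, 1.74 and 2.19 FPKM, while it made up 2.21% of the sum of its 10 isoforms in control buds, which differed by -1.14.

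A synaptotagmin-1 transcript (TR10192|c0_g2_i7) codes for a protein that in *Arabidopsis* sits where the endoplasmic reticulum meets the plasma membrane and takes part in membrane repair. It stood at 73.8, 66.9 and 80.5 FPKM in control and 40.6, 25.2 and 40.9 FPKM in HC buds at 3 dat, a log2 FC of -1.07 (SE 0.20, adjusted p = 0.029, limma). At 6 dat it was at 51.7, 56.3 and 38.6 FPKM in control and 7.56, 8.33 and 10.5 FPKM in HC buds. The HC libraries were below the controls in every tree at both days. This held at 1 dat too, with 79.8, 76.2 and 76.5 FPKM in control and 47.2, 53.8 and 47.6 FPKM in HC buds.

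The wall protein transcript TR13929|c0_g1_i1 matched GP1 of green algae, a structural glycoprotein, and was the only isoform of its gene. It was at 7.31, 8.14 and 8.26 FPKM in control and 1.75, 1.15 and 2.79 FPKM in HC buds at 3 dat (log2 FC -1.87, SE 0.29, adjusted p = 0.019, limma). At 6 dat it was at 7.24, 8.92 and 10.1 FPKM and at 1.77, 2.10 and 1.26 FPKM, and neither group overlapped the other at either day. Nor did they at 1 dat, with 8.61, 7.01 and 7.02 FPKM in control and 5.02, 4.62 and 4.94 FPKM in HC buds. The receptor-like kinase PERK2 (TR12250|c2_g2_i1), of a family with an extracellular proline-rich part, passed the test at a log2 FC of -1.47 (SE 0.31, adjusted p = 0.045, limma) but not when blocked by tree (adjusted p = 0.056, with 0.0016 to 0.15 over all alternatives). A cellulose synthase-like E1 transcript (TR13543|c1_g3_i1) did not pass the test at 3 dat, with overlapping groups and a log2 FC of -1.01 (SE 0.48, adjusted p = 0.30, limma).

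The high affinity nitrate transporter transcript TR38534|c3_g4_i1, for a protein that takes up nitrate when little is at hand, had similar control levels at day 0 and 3 dat and lower ones at 6 dat. It was at 24.6, 22.0 and 21.9 FPKM at day 0, at 23.7, 19.1 and 23.3 FPKM in control buds at 3 dat and at 4.87, 5.25 and 4.88 FPKM at 6 dat. In HC buds it was already at 7.06, 2.38 and 4.92 FPKM at 3 dat (log2 FC -2.19, SE 0.34, adjusted p = 0.018, limma) and at 0.573, 0.985 and 0.952 FPKM at 6 dat. The HC levels of 3 dat thus spanned those of the controls of 6 dat.

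Regulators among the members included a repressor-type MYB and a BTB/POZ protein. A transcript like MYB308 (TR24348|c0_g2_i1), which in snapdragon represses the synthesis of phenolic compounds, rose in control buds from 22.1, 19.4 and 22.9 FPKM at day 0 to 94.9, 73.1 and 66.0 FPKM at 3 dat. In HC buds it was at 38.3, 29.2 and 39.0 FPKM at 3 dat, below every control (log2 FC -1.12, SE 0.17, adjusted p = 0.018, limma). Its groups overlapped at 1 dat. At 6 dat it was at 56.0, 51.2 and 55.5 FPKM in control and 7.50, 12.7 and 15.8 FPKM in HC buds.

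The other isoform of the same gene, TR24348|c0_g2_i2, was also a member. It had a log2 FC of -0.84 at 3 dat (SE 0.16, adjusted p = 0.034, limma), short of the fold asked for, and the sum of both isoforms differed by -2.34 at 6 dat. BT4, with a BTB/POZ and a TAZ domain (TR8821|c0_g2_i3), is of a family that in *Arabidopsis* binds calmodulin and bromodomain proteins. It fell from 202, 213 and 251 FPKM at day 0 to 104, 83.3 and 106 FPKM in control and 42.1, 24.5 and 42.4 FPKM in HC buds at 3 dat (log2 FC -1.45, SE 0.22, adjusted p = 0.018, limma), and stood at 26.8, 26.7 and 29.5 against 4.17, 4.33 and 5.10 FPKM at 6 dat. The groups of BT4 overlapped at 1 dat.

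Enzymes of phenolic metabolism and glycosylation differed among themselves. Both members of the UDP-glucose glucosyltransferase gene TR13302|c2_g1, which adds glucose to small molecules, were lower at 3 dat. Its isoform i2 was at 42.1, 37.3 and 28.8 FPKM in control and 8.47, 6.21 and 6.62 FPKM in HC buds (log2 FC -2.26, SE 0.19, adjusted p = 0.0076, limma), and isoform i5 had a log2 FC of -2.53 (SE 0.36, adjusted p = 0.015, limma). By 6 dat i2 was at 6.502, 3.99 and 8.16 FPKM in control buds, close to the HC levels of 3 dat, and at 0.550, 1.59 and 0.00436 FPKM in HC buds. The groups of i2 overlapped at 1 dat.

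The 4 members of the phenylpropanoid and flavonoid list were not called at 3 dat. An anthocyanidin glucosyltransferase transcript (TR13651|c3_g4_i5), for the attachment of sugars to anthocyanin pigments, was at 81.6, 60.0 and 59.9 FPKM in control and 50.5, 39.3 and 65.0 FPKM in HC buds at 3 dat, with overlapping groups (log2 FC -0.39, SE 0.20, adjusted p = 0.34, limma). The CYP98A2 transcript TR26971|c1_g2_i5, for an enzyme that hydroxylates esters on the way to lignin, had a log2 FC of -0.46 (SE 0.18, adjusted p = 0.20, limma), and a leucoanthocyanidin reductase transcript (TR12901|c1_g4_i7), for a step to catechins, of 0.24 (SE 0.27, adjusted p = 0.68, limma). At 6 dat leucoanthocyanidin reductase was at 4.64, 5.78 and 9.07 FPKM in control and 0.108, 3.07 and 1.13 FPKM in HC buds. The sum over the isoforms of the CYP98A2 gene overlapped at 6 dat, with 111, 107 and 149 FPKM in control and 87.0, 116 and 110 FPKM in HC buds. A transcript of CYP78A5 (TR40111|c0_g1_i1), which in *Arabidopsis* promotes organ growth, was at 20.9, 12.4 and 16.0 against 8.33, 2.41 and 5.52 FPKM at 3 dat. Its groups did not overlap, but its log2 FC of -1.63 (SE 0.40) passed the test only with a block for the tree or with all 21 libraries in 1 fit (adjusted p = 0.067, limma, and 0.034 with the block, with 0.0034 to 0.19 over all alternatives).

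Of the 5 members in the list of RNA processing and translation, 1 was called lower at 3 dat. This was a glycine-rich RNA-binding protein of mitochondria (TR8470|c0_g1_i6), which was at 13.2, 7.97 and 10.9 FPKM in control and 0.0767, 0.443 and 3.597 FPKM in HC buds at 3 dat (log2 FC -3.07, SE 0.67, adjusted p = 0.048, limma). At day 0 the same transcript was at 14.7 FPKM in tree 5 and near 0 in trees 4 and 6, and when blocked by tree it was not called (adjusted p = 0.067, with 0.012 to 0.19 over all alternatives). A transcript of the large subunit of U2AF, which finds the end of introns (TR31322|c0_g1_i13), was at 10.5, 11.6 and 9.34 FPKM in control buds at 6 dat against 2.98, 1.75 and 1.65 FPKM. At 3 dat its log2 FC was 0.35 (SE 0.33, adjusted p = 0.62, limma). The sum over the isoforms of the U2AF gene differed far less at 6 dat, with 148, 153 and 146 FPKM in control and 129, 117 and 119 FPKM in HC buds.

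Of the 6 members in the list of kinases and receptors PERK2 alone was called at 3 dat. The other lists with members had 1 of 2 called lower for heat shock and stress proteins, 2 of 3 for the cell wall (the DC2.15-like transcript and PERK2), 1 of 2 for cuticle and lipid, 2 of 5 for cytochrome P450 enzymes and glycosyltransferases, 1 of 3 for transcription factors and 1 of 1 for transport. The cell wall list did not take in the GP1-like wall protein transcript, which was also called lower and was named after its values were seen. No member was called among 4 of redox and detoxification, 3 of protein turnover and 1 of cell cycle and chromatin. Nor was either of the 2 members in the list of cytokinin, abscisic acid, ethylene and brassinosteroid. Both are isoforms of 1 furanone reductase gene, for an enzyme of fruit aroma in strawberry. Their description holds the word methylene and names none of these hormones, so they are not hormone members by description. A member could stand in several lists, 19 of the 52 described members stood in none, and 9 of the 22 lists held no member, among them cold and dehydration, MADS-box and flowering, auxin, gibberellin, and sugar and starch. The lists were made by words searched in the descriptions, so a list without a member does not show that the group lacked such transcripts. The RCI2B transcript, whose gene responds to cold in *Arabidopsis*, did not count under cold and dehydration.

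In several of these lists more of the other transcripts were higher than lower in HC buds at 3 dat. Of 221 other heat shock and stress transcripts tested, 33 were higher and 11 lower (median log2 FC 0.32), and of 370 other P450 enzymes and glycosyltransferases 100 were higher and 9 lower (median 0.91). Of 274 others of phenylpropanoid and flavonoid metabolism, 44 were higher and 9 lower (median 0.56), and of 324 of the cell wall 43 and 16 (median 0.48). Among 726 others of RNA processing and translation 8 were higher and 4 lower (median -0.10), and cold and dehydration, a list with no member, had 2 higher and 16 lower of 63 tested (median -0.44). Of 1400 other kinases and receptors 78 were higher and 24 lower, of 482 transcription factors 32 and 7, and of 797 of transport 48 and 13. For redox and detoxification 144 and 15 of 1031 were called, and for protein turnover 27 and 8 of 714. Cuticle and lipid had 16 and 16 of 307, cell cycle and chromatin 3 and 5 of 309, and the hormone list 24 and 6 of 138. The lists were drawn from the same tables of responding transcripts, so these counts are not independent of the treatment.

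The 5 members with the highest control level at 6 dat had no description, and all undescribed transcripts of this paragraph were named after their values were seen. The transcript TR25771|c1_g1_i1 was at 3114, 3375 and 3983 FPKM in control and 1926, 842 and 1819.8 FPKM in HC buds at 3 dat, and its groups did not overlap. Its log2 FC of -1.28 (SE 0.29) missed the test (adjusted p = 0.056, limma). At 1 dat this transcript was at 3820, 4521 and 3449 FPKM in control and already lower, at 2652, 2680 and 3004 FPKM, in HC buds. At 6 dat it was at 1696, 2189 and 1742 FPKM against 200.2, 276 and 337 FPKM, and the other isoform of its gene, also a member, at a mean of 984 against 153 FPKM. Next in level was TR33192|c3_g2_i4, with 242, 147 and 131 FPKM in control and 80.4, 56.2 and 90.3 FPKM in HC buds at 3 dat (log2 FC -1.17, SE 0.26, adjusted p = 0.049, limma), a call lost with any 1 library left out. Its levels at 6 dat were 325, 95.1 and 114 FPKM against 0.1197, 1.33 and 84.8 FPKM, so that 1 HC library of 3 was close to the controls. At 1 dat they were 87.1, 143 and 81.4 FPKM in control and already lower, at 49.6, 69.0 and 72.1 FPKM, in HC buds. The transcript TR6543|c0_g1_i1, the only one of its gene, was at 79.4, 89.2 and 75.6 FPKM in control and 60.0, 30.4 and 69.1 FPKM in HC buds at 3 dat (log2 FC -0.69, SE 0.28, adjusted p = 0.22, limma), and at 189, 151 and 187 FPKM against 41.9, 30.0 and 45.2 FPKM at 6 dat. At 1 dat it was at 96.7, 87.5 and 115 FPKM in control and already lower, at 57.7, 56.6 and 61.1 FPKM, in HC buds.

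At a lower level, the transcript TR32683|c0_g1_i2, also undescribed and named after its values were seen, fell from 236, 235 and 185 FPKM at day 0 to 89.9, 90.8 and 82.4 FPKM in control and 32.1, 17.5 and 25.7 FPKM in HC buds at 3 dat (log2 FC -1.82, SE 0.20, adjusted p = 0.0091, limma). At 1 dat it was at 86.0, 82.7 and 104 FPKM in control and already lower, at 51.5, 41.2 and 48.7 FPKM, in HC buds. The fifth of the highest, TR33970|c0_g1_i1, had a course like that of the small heat shock protein, with 16.5, 7.93 and 18.2 FPKM in control buds at 3 dat and 235, 207 and 81.9 FPKM at 6 dat, while HC buds were at 41.4, 18.9 and 16.8 FPKM at 6 dat.

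The course to 3 dat was compared with day 0 in each treatment, with the same day 0 libraries in both comparisons. In control buds 22 of the 137 members tested were higher than at day 0 (16.1%, beside 4.39% of all transcripts) and 5 were lower (3.65%, beside 1.71%). In HC buds 11 of 137 were higher (8.03%, beside 7.99%) and 19 lower (13.9%, beside 3.24%). After the libraries were rescaled by median ratios, which moved the median log2 FC of all transcripts from 0.18 to 0.02 in control and from 0.16 to -0.04 in HC buds, the counts were 17 higher and 7 lower in control and 7 higher and 27 lower in HC buds. Over all transcripts this rescaling moved the counts in control buds from 2719 to 1795 higher and from 1058 to 1514 lower. In HC buds it moved them from 4905 to 3450 higher and from 1990 to 2758 lower. The 5 members lower in control buds were the transcripts of DC2.15, the endochitinase, BT4, an uncharacterized protein (TR13403|c3_g2_i4) and TR32683|c0_g1_i2. Their log2 FC against day 0 was -2.22, -1.81, -1.18, -1.37 and -1.31 in control buds, in this order, and -3.54, -4.66, -2.63, -3.28 and -3.13 in HC buds.

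These counts too moved with single libraries. With 1 library left out, 8 to 22 members were higher and 5 to 8 lower in control buds, where the lowest count was without the control of tree 6, 12 were higher without the day 0 library of tree 6, 14 were higher without the control of tree 4 or of tree 5, and 8 were lower without the control of tree 4. In HC buds 4 to 7 were higher and 15 to 20 lower, where the higher count was 7, 7 and 4 without the HC library of trees 4, 5 and 6 and 7, 6 and 5 without the day 0 library of these trees. Counts over all transcripts were also smaller with 1 library left out. They were 822 to 2284 higher and 543 to 890 lower in control buds. In HC buds they were 3132 to 4172 higher and 1228 to 1662 lower.

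Members of protein turnover were not called between HC and control at 3 dat. A transcript like the aspartic protease of guard cells (TR13514|c4_g2_i16), a proteolytic enzyme, rose from 0.358, 0.710 and 0.304 FPKM at day 0 to 35.6, 36.4 and 31.4 FPKM in control and 21.2, 14.8 and 21.0 FPKM in HC buds at 3 dat. Both were called against day 0, with a log2 FC of 5.21 (SE 0.23, adjusted p = 0.00017) and 4.35 (SE 0.27, adjusted p = 0.00021, limma), and at 6 dat it was at 18.1, 22.1 and 9.59 FPKM against 0.468, 0.101 and 4.79 FPKM. The sum over the isoforms of its gene moved less, from 81.6, 105 and 107 FPKM at day 0 to 212, 155 and 173 FPKM in control buds at 3 dat. At 6 dat that sum overlapped, with 181, 185 and 134 FPKM in control and 126, 98.8 and 186 FPKM in HC buds. A serine carboxypeptidase-like transcript (TR13486|c1_g1_i41) had a large but scattered gap at 3 dat, with 34.9, 38.0 and 23.0 FPKM in control and 7.25, 0.127 and 12.9 FPKM in HC buds (log2 FC -2.98, SE 1.01, adjusted p = 0.15, limma). Against day 0 control buds were higher, at a log2 FC of 2.37 (SE 0.59, adjusted p = 0.0496, limma), and HC buds did not pass the test (-0.61, SE 1.16, adjusted p = 0.77, limma). The sum over the isoforms of this gene overlapped at 6 dat, with 59.5, 51.8 and 79.1 FPKM in control and 62.4, 60.3 and 59.8 FPKM in HC buds.

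Calls at 3 dat were unevenly spread over the courses that members took in control buds. Of the 16 members lower by 1 or more at 6 dat than at day 0 in control buds 10 were called lower in HC than in control buds at 3 dat, with a median log2 FC of -2.07, beside 8 of 55 with a control level near that of day 0 (median -0.63) and 5 of 68 tested with a control level above day 0 (median -0.37). This sorting used the control libraries of 6 dat and day 0 and was set after values were seen, and the difference between the classes was not tested.

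For many members the assembled gene as a whole did not follow the transcript. Of the 142 members 33 were the only transcript of their gene, and 109 shared a gene with other isoforms, between which the deposited values divide the reads. In 44 of these 109 the sum over all isoforms differed by less than 0.5 at 6 dat, in 36 it was lower by 1 or more and in 12 by 2 or more. Members made up at least 0.5 of the gene’s FPKM in control buds at 6 dat in 18 of the 109 cases. At 3 dat none of the 44 with a gene sum near 0 was called, and 10 of the 36 with a lower gene sum and 8 of the 31 tested that were the only transcript of their gene were. The median log2 FC at 3 dat was -0.24, -1.03 and -1.29 in these classes, which were made from the values of 6 dat that chose the members, and the difference between them was not tested. When isoforms were summed before the choice, 43 assembled genes met the same criteria, all of them among the 137.

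**Figure D4:**
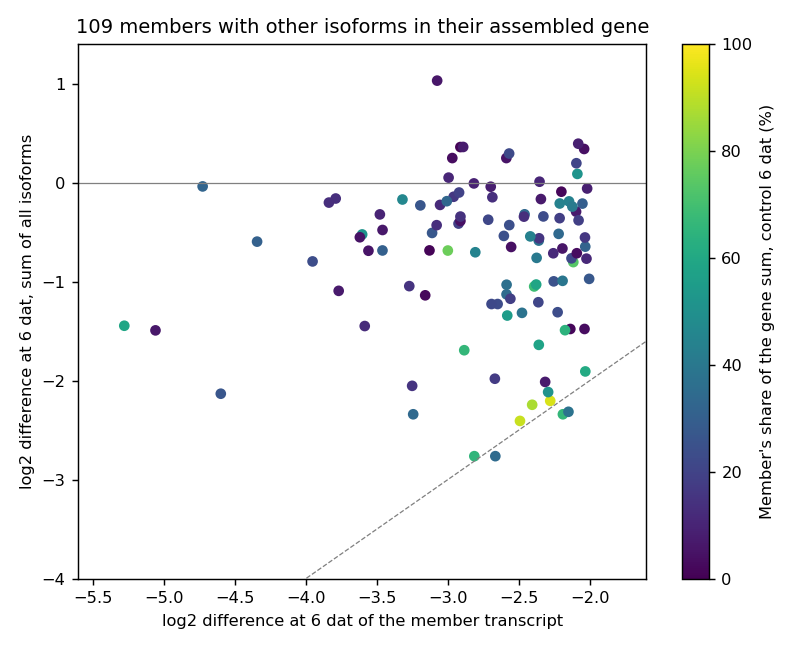
Log2 difference between HC and control at 6 dat for the sum of all isoforms of the assembled gene (vertical axis) against that of the member transcript (horizontal axis), for 109 members with other isoforms, with colour for the member’s share of the gene sum. Points on the dashed line have equal differences, and 44 points lie within 0.5 of 0 on the vertical axis.

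Levels also scattered between trees within a group. In 39 members a library of day 0, 1 dat or 3 dat was under 0.5 FPKM while another of the same group was over 5 FPKM. Of these 35 had other isoforms and 4 had none, and 2 were among the 23 called at 3 dat, namely the glycine-rich RNA-binding protein and the undescribed TR33192|c3_g2_i4, which stood at 0.376, 46.3 and 55.4 FPKM at day 0. In a furanone reductase transcript (TR13693|c2_g2_i2) the HC libraries of 3 dat were at 3.12, 0.0348 and 7.54 FPKM and the control libraries at 36.5, 21.1 and 29.4 FPKM. These groups did not overlap, but the log2 FC of -3.53 (SE 0.88) missed the test (adjusted p = 0.068, limma), and the sum over the 17 isoforms of its gene, of which it made up 3.25% in control buds, differed by 0.25 at 6 dat.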

How the data were processed

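Flower bud RNA of 21 libraries was sequenced from stranded mRNA. The authors trimmed reads with Trimmomatic 0.33, assembled transcripts with Trinity, removed redundant ones with CD-HIT-EST, mapped reads with STAR (version not given in the sources used here) and estimated levels with eXpress 1.5.1, which divides reads shared by isoforms and close copies. The deposited values are FPKM of 112043 transcripts, with no counts, so the depth is unknown. The authors tested estimated counts with EBSeq, which could not be run on FPKM. The descriptions are the study’s protein matches, read from parts of its tables. No genome was used, and no sequences are shown. Members and lists were chosen with earlier results of these data known.

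Transcripts that reached a mean of 0.5 FPKM in the 6 libraries of a comparison entered the test, on log2(FPKM + 0.5) with limma 3.58.1 in R 4.3.3 (moderated variances with a trend), with p-values adjusted by Benjamini-Hochberg over all of them. Fold changes are on this scale, which understates the change of low transcripts. The 3 comparisons (HC against control at 3 dat, and each against day 0) share libraries in pairs. Per the labels’ treatment protocol, every treatment group had its 3 replicates from trees 4, 5 and 6, and sample titles end in these numbers. Deviations from group means correlated at -0.01 to 0.07 for the same tree and at -0.07 to 0.03 for different trees, so the tree was tried as a block. A pseudocount of 0.1 or 1 FPKM was also tried, as were leaving out the filter or raising it to 1 FPKM, rescaling by median ratios, summed isoforms, all 21 libraries in 1 fit, no fold change threshold and leaving out each library. Tables and plots were made with Python 3.11.15, numpy 2.4.6, pandas 2.3.3 and matplotlib 3.10.9.

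Named members were taken, among those with a description, as the 12 with the highest control level and the 12 with the lowest difference at 6 dat, the 6 lowest and 6 highest log2 FC at 3 dat, 3 per list by control level, and those next to a threshold, where the role was certain. Genes with 3 or more members and members in the study’s sequence table belonged to the rule too, but there were none. The undescribed TR33192|c3_g2, TR6543|c0_g1, TR25771|c1_g1, TR33970|c0_g1, TR32683|c0_g1 and TR38560|c0_g2 and the described TR13302|c2_g1 and TR13929|c0_g1 were named after their values were seen.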

Additional observations from a re-analysis of the deposited data

Results flagged for a closer look

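In 4 undescribed members every HC library was above every control library at 3 dat, while by the choice of members every HC library was below every control library at 6 dat. Over all transcripts tested 13.7% had this order at 3 dat, so the count is below the background and is given only for the turn between the days. The difference between the days was not tested, because the values of 6 dat chose the members. The log2 difference between HC and control at 3 dat was 2.70 for TR38560|c0_g2_i4, 1.01 for TR8519|c0_g3_i1, 0.63 for TR2760|c0_g1_i1 and 0.56 for TR25949|c0_g1_i6. The first was at 17.5, 10.9 and 5.46 FPKM in HC and 4.09, 1.29 and 0.0458 FPKM in control buds at 3 dat, and missed the test (log2 FC 2.70, SE 0.76, adjusted p = 0.096, limma), but passed it when blocked by tree (adjusted p = 0.027) and with all 21 libraries in 1 fit (adjusted p = 0.049). Groups of 3 libraries are too small for a test of single outlying libraries.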

How the results depend on the processing

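The number of members by the same criteria was 181 and 100 with pseudocounts of 0.1 and 1 FPKM, of which 131 and 95 were among the 142, and 43 assembled genes with isoforms summed. With 1 library left out it was 138 to 242, with the highest counts without the HC library of tree 4 (242) and the control library of tree 6 (239) at 6 dat, where fewer libraries had to be in order.

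Without a filter silent transcripts were tested too, and 2 members were called lower at 3 dat, beside 99 of all 112043 transcripts. The reason for this fall was not tested. Members called lower at 3 dat numbered 3 to 24 with 1 library left out. With the tree as a block they numbered 21, of which 20 were shared with the fit without it. None was called higher at 3 dat, but TR38560|c0_g2_i4 made 1 with the block and 1 with all 21 libraries in 1 fit, and 0 with any library left out. Against day 0, members higher in control buds numbered 10 without a filter (beside 1345 of all transcripts) and 8 to 22 with 1 library left out. Those lower numbered 5 to 8 with 1 library left out. In HC buds those higher numbered 5 without a filter (beside 3496 of all transcripts), 7 after rescaling and 4 to 7 with 1 library left out. Those lower in HC buds numbered 15 to 20 with 1 library left out. The block changed no other count by over 1.5 times. Of 54 members followed singly at 3 dat, 17 were called, of which 15 lost the call without a filter, 14 with some library left out and 2 with the block. Signs turned, in members that were not called, when 1 library was left out. The range over these was -1.67 to 0.43 for TR26552|c7_g3_i2, -0.73 to 0.36 for TR10102|c0_g1_i1 and -0.29 to 2.02 for TR11437|c3_g1_i5, which turned without the control of tree 5, -0.96 to 1.15 for TR26977|c0_g1_i9 and -0.27 to 0.73 for TR38880|c0_g1_i2 without that of tree 4, -0.34 to 0.94 for TR11572|c0_g1_i1 without that of tree 6, -1.41 to 0.13 for TR25353|c0_g1_i4 without the HC library of tree 4, and -1.10 to 1.43 for TR23524|c0_g1_i2 without the HC library of tree 4 (-0.48) or the control of tree 5 (-1.10). The cause was not tested.

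The unknown depth, 3 libraries per group and the division of reads between isoforms limit these values, and 76 members were under 10 FPKM in control buds at 6 dat.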
